A study of Mus musculus with 10 samples.

Results

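The genes described here are 8 regulators of MYC proteins: the ubiquitin ligase genes Fbxw7, Huwe1, Skp2, Trim32, Stub1 and Fbxo32, the kinase gene Gsk3b, and Aurka, which encodes Aurora A. They were taken by symbol from 24391 genes counted in each of 10 RNA-seq libraries, and all 8 were found and passed the filter on low counts. The cells were 5 lines derived from mouse tumours of small cell lung cancer (SCLC), a cancer that is usually neuroendocrine: G4314, G9351, G9488, G9529, G9577. Each line gave 1 library from cells kept on doxycycline (MYCN on) and 1 from cells that had been without it for 4 days (MYCN off). The counts measure polyadenylated transcripts relative to all others, and no protein. All 10 libraries share 1 genotype, Rb;p53, TRE-MYCN, LSL-RTTA: the tumour suppressors Rb and p53, whose alleles are not spelled out, a MYCN transgene behind a tetracycline-responsive promoter, and the activator rtTA, which a stop cassette blocks until it is removed. What removed that cassette, and in which cells, is not stated in the labels. No cells without the transgene received doxycycline, so an effect of the drug itself cannot be told apart from one of MYCN. Nothing says that cultures were repeated, so the spread is that between lines, and p-values measure only that spread.

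The libraries held 9586465 to 11960074 counts. Mycn stood at 496 to 977 CPM (counts scaled to a common library total) with MYCN on, against 27.6 to 189 CPM with MYCN off, and was higher with MYCN on in 5 of 5 lines. Reads of the transgene and of the mouse gene cannot be told apart, and the labels do not name the species of MYCN. G9577 stood apart from the other lines, with low levels of neuroendocrine markers. Its 10 neuroendocrine markers summed to 223 CPM (MYCN on) and 179.9 CPM (MYCN off), against 3224 to 4090 CPM (MYCN on) and 5051 to 6984 CPM (MYCN off) in the other 4 lines, where the sums with MYCN on and off did not overlap. Dll3 was at 0 in both G9577 libraries, while Ncam1 stood at 99.8 CPM (MYCN on) and 125 CPM (MYCN off) and Uchl1 at 118 CPM (MYCN on) and 17.3 CPM (MYCN off). The part of the neuroendocrine markers in the values of the 8 genes was not tested. Its 10 mesenchymal markers summed to 1899 CPM (MYCN on) and 6778 CPM (MYCN off), against 1.62 to 10.8 CPM elsewhere, where Lum was at 0 in all 8 libraries. Most of the G9577 sums was Vim, at 1638 CPM (MYCN on) and 4409 CPM (MYCN off). Not every marker was high there. Thy1 was at 0 in both G9577 libraries, against 2.94 CPM (MYCN on) and 6.52 CPM (MYCN off) in G4314. Dcn was at 0.093 CPM (MYCN on) and 2.67 CPM (MYCN off), under its 1.49 and 3.03 CPM in G9488. Results that rest on G9577 are therefore given with and without it.

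MYC proteins are short-lived. GSK3 phosphorylates a conserved stretch near the start of the protein, and FBXW7, the substrate-binding subunit of an SCF ubiquitin ligase, then binds that stretch and marks the protein for the proteasome. Aurora A, a mitotic kinase, is known from human neuroblastoma cells to bind N-MYC and shield it from FBXW7. The other ligases here act on MYC proteins by other routes, and SKP2 also marks the cell cycle inhibitor p27.

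Aurka and Skp2 showed the largest positive log2 changes of the 8 genes, and their promoter windows are shown here for that reason, beside that of Stub1, the single member whose window holds the E-box bound by MYC and MAX. Each window covers 250 bases before and 50 bases after a RefSeq transcription start in GRCm38.p6, 300 bases in all. Capitals mark the letters CACGTG (the E-box), TTTGAA (the cell cycle genes homology region, CHR) and CCAAT (the CCAAT box), searched on both strands. Of the 2 windows listed for Skp2, the one richer in CG pairs is printed.
Aurka, chr2:172370521-172370820, minus strand: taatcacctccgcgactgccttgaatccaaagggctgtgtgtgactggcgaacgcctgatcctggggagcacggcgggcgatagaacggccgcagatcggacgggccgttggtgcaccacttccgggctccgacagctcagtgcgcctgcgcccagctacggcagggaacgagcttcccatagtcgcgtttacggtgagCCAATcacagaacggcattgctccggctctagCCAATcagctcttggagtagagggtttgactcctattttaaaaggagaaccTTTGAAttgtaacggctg
Skp2, chr15:9140405-9140704, minus strand: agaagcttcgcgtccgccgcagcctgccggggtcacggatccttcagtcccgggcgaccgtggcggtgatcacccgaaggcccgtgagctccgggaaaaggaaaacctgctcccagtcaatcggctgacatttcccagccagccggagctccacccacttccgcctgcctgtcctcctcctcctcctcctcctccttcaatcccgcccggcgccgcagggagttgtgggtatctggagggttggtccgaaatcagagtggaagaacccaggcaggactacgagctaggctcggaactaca
Stub1, chr17:25832870-25833169, minus strand: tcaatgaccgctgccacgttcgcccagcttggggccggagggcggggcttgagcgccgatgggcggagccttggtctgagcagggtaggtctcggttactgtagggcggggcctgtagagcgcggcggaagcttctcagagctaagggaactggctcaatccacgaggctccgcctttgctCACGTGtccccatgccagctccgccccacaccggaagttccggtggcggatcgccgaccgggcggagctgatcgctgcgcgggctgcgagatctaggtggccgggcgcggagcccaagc

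The Aurka window held 2 CCAAT boxes, 51 and 19 bases before the start, and a CHR 33 bases after it. Both kinds of letters together occur in 6.95% of all 32851 windows of this length, and they also occur in the window of Trim32 and in the other window of Skp2. The printed Skp2 window held none of the 3 motifs. The E-box occurs in 7.15% of all windows, the CHR in 17.9% and the CCAAT box in 37.4%. Windows were listed for 7 of the 8 genes, all but Fbxo32. The E-box of Stub1 begins 69 bases before the start.

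**Figure D1:**
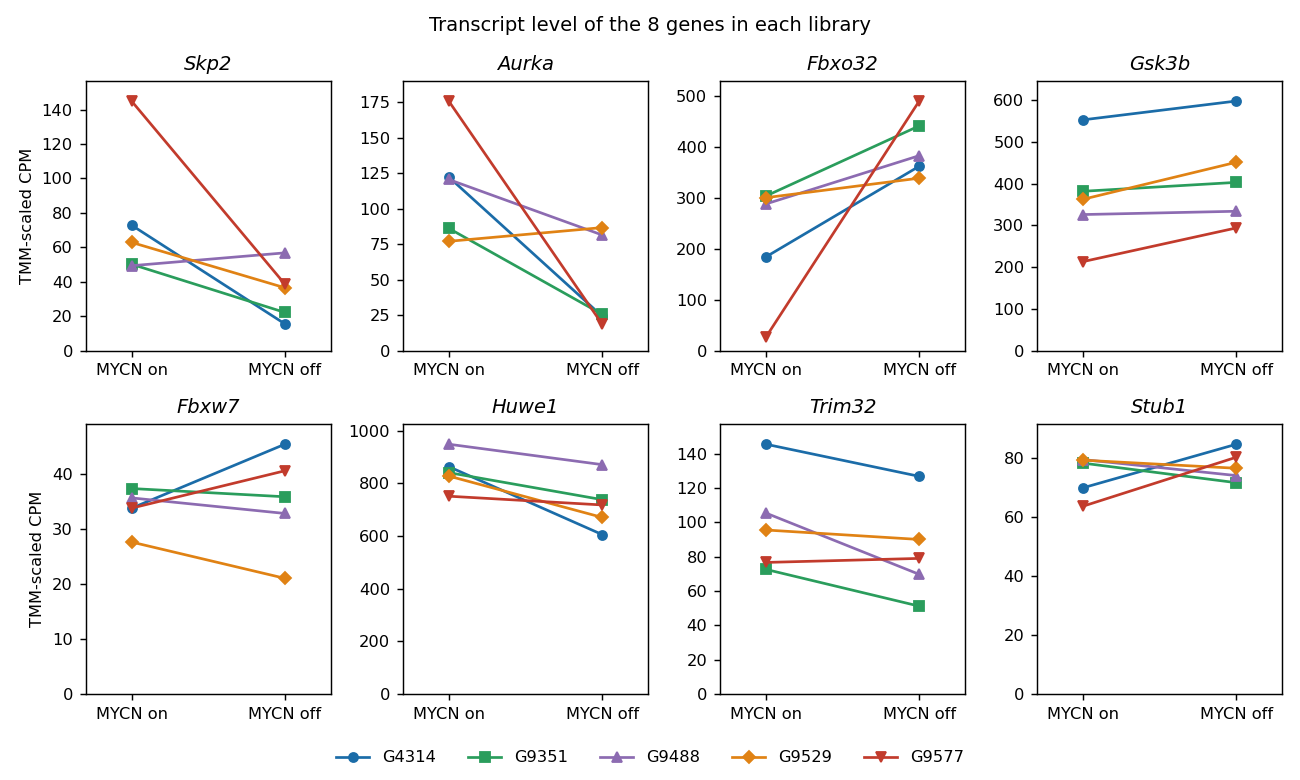
TMM-scaled CPM of each of the 8 genes (vertical axes, from 0) with MYCN on and with MYCN off; each line joins the 2 libraries of 1 cell line. Skp2 and Aurka are at least 2.26-fold higher with MYCN on in G4314, G9351 and G9577, Fbxo32 is lower with MYCN on in all 5 lines, and Huwe1 and Stub1 stay within a 1.57-fold and a 1.33-fold range.

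Between MYCN on and MYCN off, 1 of the 8 genes passed the threshold, an adjusted p under 0.05 in edgeR's quasi-likelihood test with the line as a block. Skp2 rose and 0 of the 8 fell. Over all 12835 genes tested, 15.3% rose and 15.6% fell, 31% together, beside which 12.5% of the members were called. The median log2 change of the 8 genes was 0.11 and that of all genes tested was -0.08. Without adjustment, 2 genes were higher at the 0.05 level, Skp2 and Aurka, and 0 were lower. After adjustment limma-voom called Skp2 and Aurka higher and 0 genes lower, and DESeq2 called both higher and Fbxo32 lower. Fbxo32, Huwe1 and Gsk3b kept 1 sign in all 5 lines, as 44.9% of all genes did.

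Skp2 encodes the F-box subunit that recognises p27 and MYC (mm9 chromosome 15, 9041739 to 9085181, minus strand, 11 merged exons). It stood at 72.9 CPM in G4314, 50.2 in G9351, 49.4 in G9488, 62.9 in G9529 and 145 in G9577 with MYCN on, against 15.6, 22.2, 56.8, 36.5 and 38.6 CPM in the same lines with MYCN off. Its level with MYCN on was higher in 4 of 5 lines and lower in G9488, and the ranges of the groups overlapped. Skp2 rose 2.27-fold (log2 change 1.18, SE 0.35, adjusted p = 0.0394). Line by line, the ratio of on to off was 4.68 in G4314, 3.75 in G9577, 2.26 in G9351, 1.72 in G9529 and 0.869 in G9488. G9488 was thus the line without a higher level. For G9488 the 95% interval of the log2 ratio, which covers counting error only, ran from -0.38 to -0.03. The call was lost without G4314 (adjusted p = 0.122), G9351 (0.105), G9529 (0.0667) or G9577 (0.0688), and held without G9488 (0.0204). Without G9577 the log2 change was 0.99, and without the line block it was 1.16 with an adjusted p of 0.141.

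Of 15 genes of the SCF core, of its activation by NEDD8 and of its partner enzymes, 3 rose and 0 fell, with a median log2 change of 0.31. Over all genes tested, 15.3% rose and 15.6% fell. Cks1b encodes the small cofactor with which SKP2 binds phosphorylated p27. It stood at 99.97 CPM in G4314, 70.9 in G9351, 73.8 in G9488, 65.4 in G9529 and 251 in G9577 with MYCN on, against 16.1, 17.5, 38.4, 40.7 and 49.3 CPM with MYCN off. Every line was higher with MYCN on, and the groups did not overlap. In either direction, 44.9% of all genes tested kept 1 sign in all lines and 9.23% had groups that did not overlap. Cks1b rose 3.31-fold (log2 change 1.72, SE 0.32, adjusted p = 0.00962). Cdc34, the ubiquitin-conjugating enzyme of SCF ligases, rose 2.13-fold (log2 change 1.09, SE 0.11, adjusted p = 0.00300). Its differences of log2 CPM ran from 1.01 in G9488 to 1.23 in G9577, while those of Skp2 ran from -0.20 in G9488 to 2.21 in G4314. Nedd8, the ubiquitin-like protein that activates cullins, rose 1.27-fold (adjusted p = 0.0487). Its call was lost in 12 of 13 alternative fits, among them those without each of the 5 lines in turn (adjusted p between 0.0503 and 0.156). This list of 15 genes held 2 rises with any 1 line left out and in DESeq2, and 3 in limma-voom. For the scaffold Cul1 the log2 change came to 0.19 (adjusted p = 0.174) and for the adaptor Skp1a to 0.31 (adjusted p = 0.0775).

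Among 19 genes whose proteins are substrates of SKP2 or FBXW7, a list that also holds Mycn and Myc, 2 rose (Mycn and Cdt1). In the same list 3 fell (Myc, Klf5 and Cdkn1b), and the median log2 change was 0.03. The shares over all genes tested were 15.3% higher and 15.6% lower. Myc itself fell by 2.64 on the log2 scale (SE 0.30, adjusted p = 0.00339). Cdkn1b encodes p27, the SKP2 substrate and cell cycle inhibitor, and was chosen after its values were seen. It stood at 266 CPM in G4314, 261 in G9351, 184 in G9488, 238 in G9529 and 158 in G9577 with MYCN on, against 634, 458, 283, 403 and 588 CPM with MYCN off. The groups did not overlap, as for 9.23% of all genes tested, and Cdkn1b fell by 1.06 on the log2 scale (SE 0.20, adjusted p = 0.00998). Klf5, a Krüppel-like transcription factor, fell by 1.12 on the log2 scale, a 2.18-fold difference (SE 0.21, adjusted p = 0.00945). Cdt1, which licenses replication origins, rose 1.75-fold (adjusted p = 0.0158) and lost its call without G4314 or G9351 (adjusted p = 0.0598 and 0.0664). With G4314 or G9351 left out, Mycn was the 1 gene of the list that rose. Its reads cannot be told apart from those of the transgene that doxycycline switches on. The rise of Mycn is therefore no separate result on substrates.

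**Figure D2:**
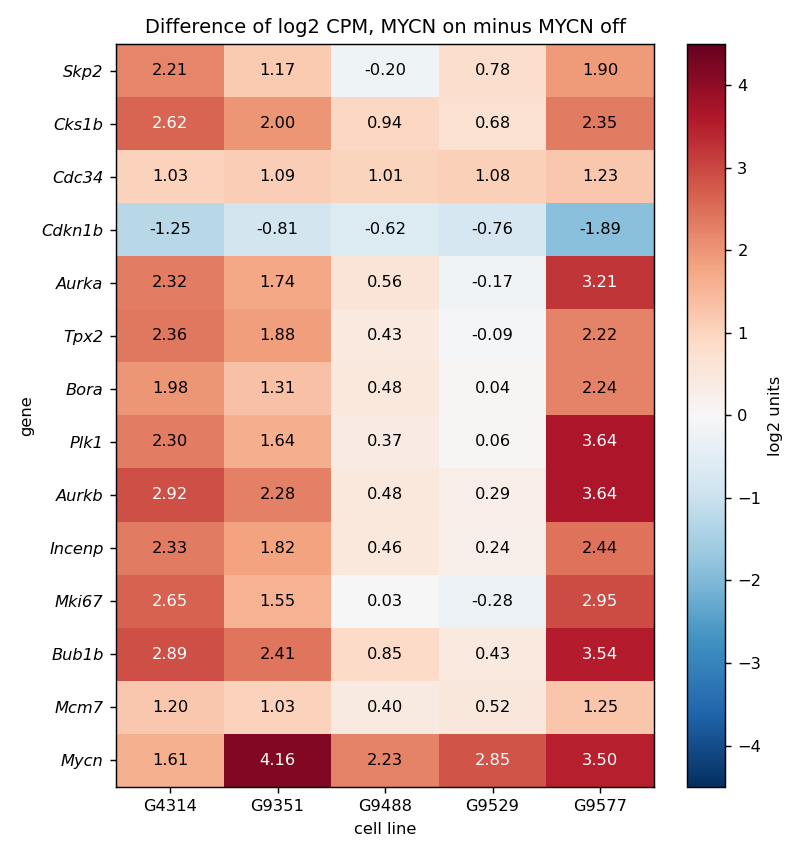
Difference of log2 CPM, MYCN on minus MYCN off, for Skp2 with its partners and substrate p27 (Cdkn1b), for Aurka with its partners and relatives, for 3 proliferation genes and for Mycn (rows) in each cell line (columns). G4314, G9351 and G9577 hold the large values of Aurka and its partners. G9488 and G9529 stay at or under 0.85 for every gene from Aurka down to Mcm7. Mycn is at 1.61 in G4314, 4.16 in G9351, 2.23 in G9488, 2.85 in G9529 and 3.50 in G9577.

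Aurora A drives mitotic entry and spindle assembly (Aurka, mm9 chromosome 2, 172181690 to 172196070, minus strand, 9 merged exons). Aurka stood at 122 CPM in G4314, 86.2 in G9351, 121 in G9488, 77.1 in G9529 and 176 in G9577 with MYCN on, against 24.4, 25.7, 81.6, 86.7 and 18.8 CPM with MYCN off. The libraries with MYCN off fell into low values in G4314, G9351 and G9577 and high values in G9488 and G9529, and the ranges of the groups overlapped. The fitted log2 change was 1.53 (SE 0.49, 95% interval 0.38 to 2.68), or 2.89-fold, with an adjusted p of 0.0506. The ratio of on to off was 9.35 in G9577, 5.02 in G4314, 3.36 in G9351, 0.889 in G9529 and 1.48 in G9488. The line without a higher level was here G9529, not G9488. In G9529 the 95% counting interval of the log2 ratio ran from -0.31 to -0.03. Aurka passed the threshold without G9529 (log2 change 1.94, adjusted p = 0.0282), in DESeq2 (adjusted p = 0.00301), in limma-voom (0.0464) and with no filter on low counts (0.0402). Without G9577 the log2 change was 1.11 (adjusted p = 0.0664).

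Of 12 genes tested that activate, bind or degrade Aurora A, 5 rose and 1 fell, with a median log2 change of 0.69. Over all genes tested, 15.3% rose and 15.6% fell. Bora, an activator of Aurora A, rose 2.32-fold (log2 change 1.21, SE 0.35, adjusted p = 0.0373). Tpx2, which activates Aurora A on spindle microtubules and was chosen after its values were seen, rose 2.59-fold (log2 change 1.37, SE 0.40, adjusted p = 0.0383). Aurkaip1, whose product binds Aurora A, rose 1.38-fold (adjusted p = 0.0377). The other rises were those of the centrosome gene Cep192 (1.8-fold) and the spindle motor Kif11 (3.18-fold), and Ndel1, a dynein regulator and Aurora A substrate, was 1.47-fold lower with MYCN on (adjusted p = 0.0298). For Plk1, the kinase that acts with Aurora A at mitotic entry, the log2 change was 1.57 (SE 0.53, adjusted p = 0.0579). Leaving out G4314 or G9351 left 0 rises in this list, leaving out G9577 left 1, and 2 other scalings gave 3. Ndel1 was not called without G4314, G9351 or G9488 (adjusted p between 0.0555 and 0.0897).

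The paralog Aurkb, the kinase of the chromosomal passenger complex, stood at 105 CPM in G4314, 76.5 in G9351, 103 in G9488, 76.7 in G9529 and 187 in G9577 with MYCN on, against 13.8, 15.6, 73.4, 62.8 and 14.8 CPM with MYCN off. The groups did not overlap, as for 9.23% of all genes tested, with G9488 and G9529 again highest among the libraries with MYCN off. Aurkb rose 3.79-fold (log2 change 1.92, SE 0.55, adjusted p = 0.0362). Its partners Incenp and Cdca8 rose 2.76-fold and 3.10-fold (adjusted p = 0.0264 and 0.0265). Thus 3 of the 4 genes of this group rose, against 15.3% of all genes tested, and 0 did without G4314 or without G9351. The third Aurora kinase gene, Aurkc, did not pass the filter.

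Of 14 proliferation genes 6 rose and 0 fell, against 15.3% and 15.6% of all genes tested. The replication helicase gene Mcm7 rose 1.84-fold (adjusted p = 0.00952), and the spindle checkpoint genes Bub1b and Bub1 rose 4.08-fold and 4.15-fold (adjusted p = 0.0214 and 0.0327). The list held 1 rise without G4314, 1 without G9351 and 3 without G9577. The median difference of log2 CPM over the 14 genes was 2.33 in G4314, 1.6 in G9351, 0.36 in G9488, -0.09 in G9529 and 2.87 in G9577. In Aurka it was 2.32, 1.74, 0.56, -0.17 and 3.21, and in Skp2 2.21, 1.17, -0.20, 0.78 and 1.90, in the same lines. Both Aurka and these medians were highest in G9577 and lowest in G9529, while Skp2 was highest in G4314 and lowest in G9488. Mki67, the gene of the Ki-67 antigen, stood at 505 to 815 CPM with MYCN on, against 129 CPM in G4314, 172 in G9351, 709 in G9488, 637 in G9529 and 99.9 in G9577 with MYCN off (adjusted p = 0.0872). In bulk libraries a smaller share of dividing cells and less transcript per cell cannot be told apart. The part of cell division in the values of Aurka and Skp2 was not tested.

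**Figure D3:**
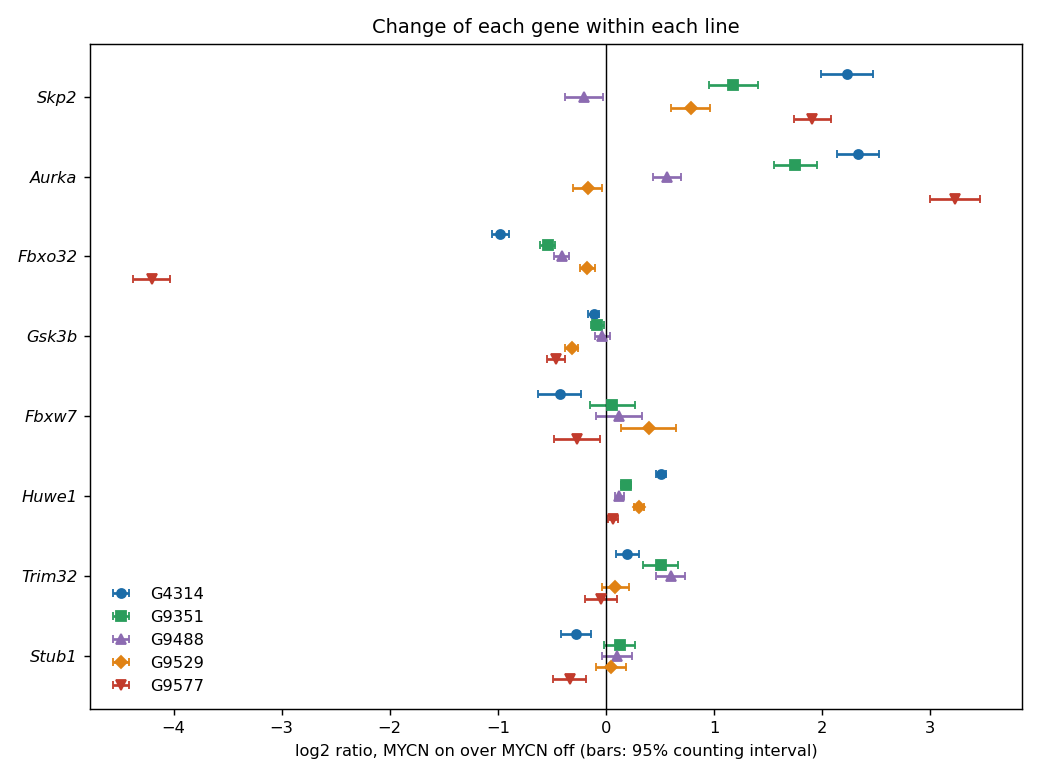
Log2 ratio of MYCN on over MYCN off (horizontal axis) for each gene in each of the 5 lines; bars are 95% intervals that cover counting error only. Skp2 and Aurka spread over more than 2 log2 units among lines, Fbxo32 lies below 0 in all lines with G9577 at -4.20, and the other 5 genes lie within 0.60 of 0.

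Fbxo32, also known as atrogin-1, is an F-box gene induced by FoxO factors in wasting muscle (mm9 chromosome 15, 58007434 to 58046447, minus strand, 9 merged exons). It stood at 184 CPM in G4314, 304 in G9351, 288 in G9488, 301 in G9529 and 26.6 in G9577 with MYCN on, against 362, 442, 383, 339 and 490.5 CPM with MYCN off. All 5 lines were lower with MYCN on and the groups did not overlap. Groups that did not overlap, in either direction, were found for 1 of the 8 genes and for 9.23% of all genes tested. The fitted log2 change was -1.10 (SE 0.57, 95% interval -2.43 to 0.22, adjusted p = 0.169). The ratio of on to off was 0.887 in G9529, 0.752 in G9488, 0.688 in G9351, 0.508 in G4314 and 0.0543 in G9577, the last an 18.4-fold difference. Without G9577 the log2 change was -0.51 (SE 0.14) and passed the threshold (adjusted p = 0.0303). It also passed in DESeq2 with all lines (log2 change -1.15, adjusted p = 0.0426). G9577 is the line with mesenchymal markers, whose summed level there was 1899 CPM (MYCN on) and 6778 CPM (MYCN off). In the same libraries the endothelial markers summed to 35.7 CPM (MYCN on) and 133 CPM (MYCN off), most of it Kdr, and the immune markers to 3.17 CPM (MYCN on) and 59.9 CPM (MYCN off), most of the higher sum Lyz2. Ptprc, Cd3e and Cdh5 were at 0 in both. The epithelial markers summed to 10.1 CPM (MYCN on) and 39.9 CPM (MYCN off), against 1612 to 3265 CPM in the other lines. The part of these markers in the value of Fbxo32 was not tested.

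Of 9 genes tested around FoxO and muscle wasting, 0 rose and 1 fell in edgeR, with a median log2 change of -0.17. The shares over all genes tested were 15.3% higher and 15.6% lower. Sesn1, a stress-induced FoxO and p53 target, was 1.5-fold lower with MYCN on (adjusted p = 0.0316), and its call was lost without any 1 of G4314, G9351, G9488 and G9529 (adjusted p between 0.0548 and 0.0774). The FoxO genes Foxo1, Foxo3 and Foxo4 had log2 changes of -0.47, -0.39 and -0.42 (adjusted p = 0.259, 0.203 and 0.222). Trim63, the other well-known ligase of muscle wasting, did not pass the filter.

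**Figure D4:**
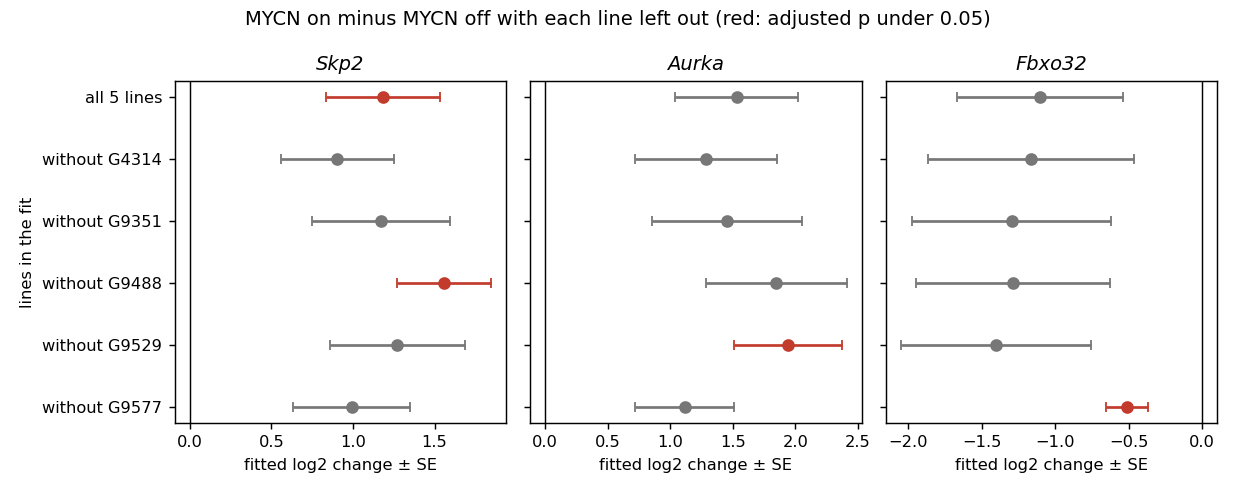
Fitted log2 change (MYCN on minus MYCN off) ± SE of Skp2, Aurka and Fbxo32 with all 5 lines and with each line left out; red points have an adjusted p under 0.05. Skp2 is red with all lines and without G9488, Aurka without G9529 alone, and Fbxo32 without G9577 alone, where its SE shrinks from 0.57 to 0.14.

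Fbxw7, the ligase subunit that reads the phosphorylated stretch of MYC, had the lowest mean level of the 8 genes per exon length with MYCN on and with MYCN off (mm9 chromosome 3, 84619499 to 84783120, plus strand, 16 merged exons). It stood at 33.8 CPM in G4314, 37.4 in G9351, 35.7 in G9488, 27.7 in G9529 and 33.8 in G9577 with MYCN on, against 45.5, 35.9, 32.9, 21.0 and 40.6 CPM with MYCN off. It was higher with MYCN on in 3 lines and lower in G4314 and G9577, and the groups overlapped. The log2 change was -0.03 (SE 0.17, adjusted p = 0.919), and its 95% interval ran from -0.41 to 0.36. It turned to 0.061 without G4314 and to 0.044 without G9577.

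Gsk3b, the kinase that prepares MYC for FBXW7 (mm9 chromosome 16, 38089087 to 38246165, plus strand, 11 merged exons), stood at 553 CPM in G4314, 382 in G9351, 326 in G9488, 363 in G9529 and 213 in G9577 with MYCN on, against 598, 403, 334, 451 and 294 CPM with MYCN off. It was slightly lower with MYCN on in 5 of 5 lines, while the groups overlapped widely, with a log2 change of -0.20 (SE 0.11, 95% interval -0.47 to 0.07, adjusted p = 0.209). In G9488 the 95% counting interval of the log2 ratio, -0.10 to 0.03, included 0. Without G9577 the log2 change was -0.13 (adjusted p = 0.374).

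Among 15 other kinases, phosphatase subunits and partners of this phosphorylation step, 3 rose and 1 fell, with a median log2 change of 0.06. Over all genes tested, 15.3% rose and 15.6% fell. Set, an inhibitor of the phosphatase PP2A, rose 2.33-fold (log2 change 1.22, SE 0.18, adjusted p = 0.00519) and was higher in 5 of 5 lines. Akt1, a kinase that inhibits GSK3, rose 1.45-fold (adjusted p = 0.0314) and lost its call without any 1 of G4314, G9351, G9488 and G9529 (adjusted p between 0.0698 and 0.0883). The list held 1 rise without G4314, G9351 or G9488. Axin2, a scaffold that brings GSK3 to its substrates and a Wnt target, fell by 0.97 on the log2 scale, a 1.96-fold difference (SE 0.19, adjusted p = 0.0106).

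The ligases Huwe1, Trim32 and Stub1 did not pass the threshold. Huwe1, a very large ligase of the HECT class that acts on MYC proteins (mm9 chromosome X, 148237825 to 148369961, plus strand, 83 merged exons), stood at 864 CPM in G4314, 841 in G9351, 949 in G9488, 828 in G9529 and 752 in G9577 with MYCN on, against 606, 739, 872, 671 and 718 CPM with MYCN off. Each line was higher with MYCN on, by 1.05-fold in G9577 up to 1.43-fold in G4314, and the groups overlapped. Its log2 change was 0.24 (SE 0.12, 95% interval -0.04 to 0.52, adjusted p = 0.164), and 0.29 without G9577 (adjusted p = 0.09997).

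Trim32, a RING ligase that lowers MYC in mouse neural progenitors (mm9 chromosome 4, 65266020 to 65277274, plus strand), lies within the span of Astn2 and shares no exon base with it. It stood at 146 CPM in G4314, 72.6 in G9351, 106 in G9488, 95.6 in G9529 and 76.7 in G9577 with MYCN on, against 127, 51.2, 69.7, 90.1 and 79.0 CPM with MYCN off. It was higher with MYCN on in 4 of 5 lines, and the groups overlapped. The ratio of on to off was highest in G9488, at 1.51, and 0.970 in G9577, and the log2 change was 0.27 (SE 0.14, 95% interval -0.05 to 0.59, adjusted p = 0.164). Without G9577 it was 0.36 (adjusted p = 0.0588).

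Stub1, which encodes the chaperone-linked ligase CHIP (mm9 chromosome 17, 25967581 to 25970306, minus strand, 7 exons), stood at 70.0 CPM in G4314, 78.4 in G9351, 79.6 in G9488, 79.4 in G9529 and 63.7 in G9577 with MYCN on, against 84.8, 71.7, 74.1, 76.6 and 80.4 CPM with MYCN off. It was higher with MYCN on in 3 lines and lower in G4314 and G9577, and the groups overlapped. Its log2 change was -0.07 (SE 0.13, 95% interval -0.37 to 0.23, adjusted p = 0.711) and turned to 0.011 without G9577, and its highest library was 1.33-fold above its lowest. Of its 1672 exon bases, 41.0% overlap exons of Jmjd8 and Mir3082, where reads were not counted, so its level is a lower bound. Fbxw7 shares 2.84% and Gsk3b 3.13% of their exon bases with other genes, and the other 5 share none.

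Of 11 other genes tested whose products act as ligases on MYC proteins or are built into such ligases, 1 rose and 2 fell. Their median log2 change was -0.17. The shares over all genes tested were 15.3% higher and 15.6% lower. Btrc, the F-box subunit beta-TrCP, was 1.57-fold lower with MYCN on (adjusted p = 0.0203), and its call was lost without G4314 or G9351 (adjusted p = 0.0740 and 0.0898). Rnf4, a ligase directed to SUMO-modified proteins, rose 1.49-fold (adjusted p = 0.0263), and its call was lost without any 1 of G4314, G9351, G9488 and G9529 (adjusted p between 0.0512 and 0.103). Of 7 deubiquitinases that oppose these ligases, 1 rose and 0 fell, beside the same shares of 15.3% and 15.6%. Usp36, the nucleolar enzyme that stabilises MYC, rose 1.87-fold (log2 change 0.90, SE 0.18, adjusted p = 0.0123), while for Usp7, which the series title names, the log2 change was 0.27 (SE 0.17, adjusted p = 0.245).

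**Figure D5:**
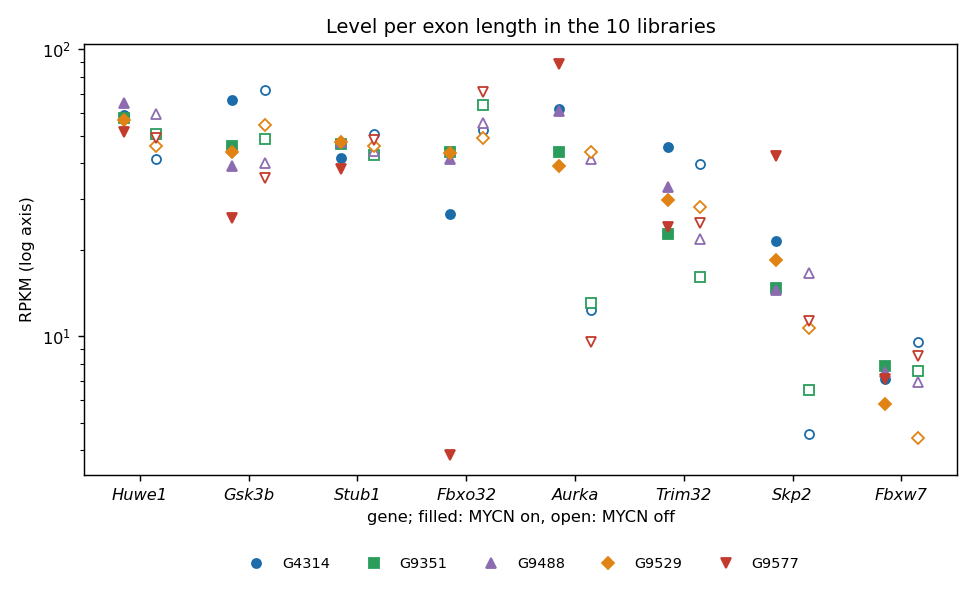
CPM per kilobase of exon (RPKM, log axis) of the 8 genes, ordered by their mean over 10 libraries; filled symbols are MYCN on, open symbols MYCN off, and shapes mark lines. Filled symbols of Aurka lie mostly above the open ones and those of Fbxo32 below them, the first 5 genes overlap widely between 3.84 and 89.1 RPKM, and Fbxw7, with the lowest mean, lies at 4.43 to 9.57 RPKM.

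On the RPKM scale, CPM per kilobase of exon, the order of the mean levels differed between the conditions. With MYCN on it ran Aurka (59.0), Huwe1 (57.9), Stub1 (44.4), Gsk3b (44.3), Fbxo32 (31.8), Trim32 (31.0), Skp2 (22.3) and Fbxw7 (7.09). With MYCN off it ran Fbxo32 (58.2), Gsk3b (50.1), Huwe1 (49.3), Stub1 (46.4), Trim32 (26.1), Aurka (24.02), Skp2 (9.96) and Fbxw7 (7.41). Averaged over all 10 libraries, the levels were 53.6 for Huwe1, 47.2 for Gsk3b, 45.4 for Stub1, 45.0 for Fbxo32, 41.5 for Aurka, 28.6 for Trim32, 16.1 for Skp2 and 7.25 for Fbxw7, and no pair of neighbours in that order was separated beyond its spread over libraries. The place of Stub1 is uncertain, because its level is divided by its whole exon length although 41.0% of it could not be counted. Trim32 was above Skp2 in 9 of 10 libraries and Skp2 above Fbxw7 in 8. The SD over n = 5 lines was 19.7 RPKM (MYCN on) and 17.0 RPKM (MYCN off) for Aurka, and 11.6 RPKM (MYCN on) and 4.70 RPKM (MYCN off) for Skp2.

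The level of a gene could also differ among the lines, whatever the doxycycline status. In an F test of the line terms in the same fit, 2 of the 8 genes, 25%, differed among lines, against 45.6% of all genes tested. Gsk3b averaged 575 CPM in G4314 over its 2 libraries, 392.5 in G9351, 330.0 in G9488, 407 in G9529 and 254 in G9577 (adjusted p = 0.0102). Both libraries of G4314 were above all others, and both of G9577 below all others. Trim32 averaged 136 CPM in G4314, 61.9 in G9351, 87.6 in G9488, 92.8 in G9529 and 77.9 in G9577 (adjusted p = 0.0237). Neither call held without G4314, where the adjusted p was 0.0711 for Gsk3b and 0.220 for Trim32, and that of Trim32 was also lost without G9351 (0.0934). Without G9577 both held (0.0196 and 0.0106).

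Genes with the most similar patterns were found by the root mean square difference of log2 CPM, each gene centred on its own mean, over the 10 libraries and 10893 other genes. Libraries of 1 line share their source, and the values are a description. For Aurka they were the resolvase gene Gen1 (0.15 log2 units), the mitotic motor Kif4 (0.17) and Ube2c (0.17), the ubiquitin-conjugating enzyme of the anaphase-promoting complex, beside a standard deviation of Aurka of 1.11. For Skp2 they were the nuclear pore gene Nup205 (0.24), the import receptor Ipo11 (0.24) and Mcph1 (0.24), the microcephalin gene, beside a standard deviation of 0.89. For Fbxo32 they were the glycosyltransferase gene Mgat3 (0.33), the cation channel gene Trpm4 (0.34) and Gnao1 (0.38), a G protein subunit, beside a standard deviation of 1.21. Mgat3, Trpm4 and Gnao1 had log2 changes of -1.14, -1.41 and -1.12 with MYCN on minus off (adjusted p = 0.0827, 0.0881 and 0.0666), and each passed the threshold without G9577. For Fbxw7 the nearest gene was Mnt (0.14 log2 units), a MAX partner that antagonises MYC, beside a standard deviation of 0.30. The nearest genes of Gsk3b, Trim32, Huwe1 and Stub1 were Slc25a51 (0.17), Rnf20 (0.11), Tbp (0.091) and Adipor2 (0.073).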

How the data were processed

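The values used are the deposited raw counts of reads per gene, 1 file per library. The submitters' processing notes name bcl2fastq 1.8.4, STAR 2.5.2a and the build mm9. Counting used featureCounts 1.6.0 without strand, per the file headers, with UCSC iGenomes gene models for mm9 and default handling, under which reads at several loci or on more than 1 gene stay uncounted. The merged exon length per gene comes from the same deposited files.

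Genes were kept with filterByExpr (minimum count 10), which left 12835 genes and 93.9% to 99.9% of the counts of each library. Counts were scaled with TMM factors, and CPM are TMM-scaled over the kept genes. RPKM divide them by merged exon length. The test was the quasi-likelihood F test of edgeR 4.0.16 in R 4.3.3, two-sided, with terms for line and doxycycline, 4 residual degrees of freedom, and Benjamini-Hochberg adjustment over all genes tested. The SE of a log2 change is the change over the square root of F. Differences of log2 CPM in single lines use a prior count of 2. DESeq2 1.42.0 and limma 3.58.1 (voom) were alternatives, with other scalings, other filters, a test against a fold of 1.5, no line block, and each line left out.

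The labels pair the libraries by line. After each group's mean was removed, the on and off libraries of 1 line correlated over genes at 0.721 to 0.873, those of different lines at 0.273 or less. No 2 libraries were identical. The test was tested on simulated data with the same design, 12706 genes run, of which 12509 were unchanged. A 1.5-fold change was recovered for 0 of 67 genes, a 2-fold change for 29.9% and a 4-fold change for 87.9%. Of the 12509 unchanged genes, 3 were called. In the data 31% of all genes tested were called, so the adjustment was stricter in the simulation than in the data. These shares are therefore not the recovery in the data, where Nedd8 was called at 1.27-fold, a call lost in 12 of 13 alternative fits. Promoter windows are RefSeq sequences in GRCm38.p6, while gene coordinates come from the files' gene models (mm9, first base 1).

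The members, the gene lists and the tests were chosen with earlier results of these data known. Named genes are the 8 members, up to 3 called genes with the smallest p from each list, and the 3 most similar genes for each member (mean CPM at least 5, without clone symbols). Of these similar genes, those of Aurka, Skp2 and Fbxo32 and the nearest of each other member are printed. Any other gene named, such as Cul1, Skp1a, Cdt1, Cep192, Kif11, Plk1, Mki67, Usp7 and the FoxO genes, was chosen after its values were seen. Some list members are not reported here.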

Additional observations from a re-analysis of the deposited data

Results flagged for a closer look

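Each member's 5 values with MYCN on, 5 values with MYCN off and 5 line ratios were examined for a single line far from the rest, 24 groups in all, with Dixon's ratio at its 95% critical value of 0.71 for 5 values. Levels were examined as CPM, not on the log2 scale, and line ratios on the log2 scale. Chance flags about 1 group in 20. Skp2 with MYCN on stood out in G9577, at 145 CPM against 49.4 to 72.9 CPM in the other lines (ratio 0.754). The log2 ratio of Fbxo32, on over off, stood out in G9577 at -4.20 against -0.98 to -0.17 in the other lines (ratio 0.801).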

How the results depend on the processing

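Of the 104 values of the 8 genes under alternatives, 89 kept their direction and their side of the threshold, 6 lost a call, 6 gained one and 3 changed sign. The values that changed sign were small: the log2 change of Fbxw7 was 0.061 without G4314 and 0.044 without G9577, and ran from -0.15 to 0.061 over the lines left out in turn, and that of Stub1 was 0.011 without G9577 and ran from -0.13 to 0.011. The count of members higher with MYCN on, 1 in edgeR, was 2 in DESeq2, in limma-voom and with no filter on low counts, where Aurka was added, and 0 in the test against a fold of 1.5. The count lower with MYCN on was 1 in DESeq2, where Fbxo32 was called. With a line left out, the counts ran from 0 to 1 higher, from 0 to 1 lower and from 0 to 2 different among lines. Over all genes, a line left out gave 1729 to 4493 changed genes, 813 to 2244 of them higher and 916 to 2249 lower. The test against a fold of 1.5 gave 869, of which 427 were higher and 442 lower. Without the line as a replicate block, that is without the pairing, 274 genes changed, 215 higher and 59 lower, and 0 members. The median log2 change of all genes was -0.08 with TMM, -0.12 with RLE and -0.09 with library size alone, and that of the members 0.11, 0.07 and 0.10. Among the gene lists, the counts of 0 were also 0 in DESeq2, in limma-voom and at an unadjusted p under 0.05, except for 1 deubiquitinase that was lower in DESeq2 and without adjustment. DESeq2 called 4 other ligases and 6 substrates lower, and limma-voom 5 substrates. For the other 46 named genes, 443 of 598 values were alike in direction and call, 137 lost a call, 18 gained one and 0 changed sign. The cause of these differences was not tested. Every member held at least 169 reads in every library. The parts of depth and of the spread among the 5 lines in the precision were not tested.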
